A study of Homo sapiens with 4 samples.

Results

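The genes described here are 40 members of the amino acid response driven by ATF4, 28 of them response genes and 12 of them cytosolic tRNA synthetases, followed in SKOV3 ovarian cancer cells. They were taken by symbol from the 19475 gene symbols of the RNA-seq table, each represented by its transcript of highest mean FPKM. FPKM is the number of sequenced tags scaled to the length of a transcript and to the total of its library. All 40 symbols were found, and 37 of them reached an FPKM of 1 in 2 or more libraries and were tested.

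The study asked how SKOV3, an established human ovarian cancer line, changes when it grows as tumor spheroids on plates coated with polymer X instead of on a tissue culture plate (TCP). RNA-seq was performed on 2 libraries from TCP, labelled day 0, and on 2 libraries of spheroids from polymer X, labelled day 8, and the labels name no genetic change and no drug in either group. Its methods describe cells maintained with fetal bovine serum and spheroids grown with serum replacement, with the spheroids dissociated by accutase at intervals, whereas the sample labels give 1 protocol with serum replacement to all 4 libraries. Substrate and culture time thus changed together and cannot be told apart, and which medium the TCP libraries had is uncertain. The libraries held about 38403000 and 44913000 tags for TCP replicates 1 and 2, and about 40034000 and 40682000 tags for polymer X replicates 1 and 2, as recovered from the steps between low values. The study's statistics section speaks of independent replicates for its experiments in general. The sample labels do not say whether the 2 libraries of a group were separate cultures, so the p-values measure only the spread between these samples, which may be technical.

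ATF4 is a basic leucine zipper transcription factor that is controlled mainly at translation. When an eIF2 alpha kinase senses a lack of amino acids, unfolded protein in the endoplasmic reticulum or another stress, phosphorylated eIF2 alpha lowers protein synthesis in general while the reading of ATF4 mRNA increases. ATF4 then pairs with C/EBP proteins and raises genes for amino acid uptake, amino acid synthesis and tRNA charging, together with regulators such as DDIT3 and TRIB3 that belong to its stress arm. ATF4 protein and eIF2 alpha phosphorylation were not measured in these libraries.

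The SKOV3 label was checked against markers of the line. ERBB2, which is amplified in SKOV3, lay at 198 and 206 FPKM on TCP and at 913 and 860 on polymer X. PAX8 lay at 49.7 ± 1.20 FPKM (SD, n = 2) on TCP and at 105 ± 3.96 (SD, n = 2) on polymer X. KRT8 fell from 265 ± 5.18 to 144 ± 1.96 FPKM (SD, n = 2) and KRT18 fell from 122 ± 1.48 to 89.5 ± 0.189 FPKM (SD, n = 2), while MUC16 was at most 0.021 FPKM. CDKN2A, which SKOV3 lacks, was listed at 0 in 3 libraries and at 0.044 in polymer X replicate 1.

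The members went in both directions. On polymer X, 4 regulators rose at least 2-fold (DDIT4, NUPR1, DDIT3 and TRIB3), whereas 1 enzyme (MTHFD2), 2 transporters (SLC7A11 and SLC7A5) and 2 synthetases (MARS and IARS) fell at least 2-fold. ATF4 mRNA itself did not pass the test. A gene was called when its adjusted p from limma was under 0.05 over all 11964 tested genes and its log2 fold change of FPKM + 1 was at least 1 in size, a scale on which changes of genes with low FPKM appear smaller than they are. Of the 25 tested response genes, 4 (16%) were called higher, where 10.7% of all tested genes were, and 3 (12%) were called lower, where 9.45% of all tested genes were. Of the 12 synthetases, 0 were called higher and 2 (16.7%) lower. Without the fold minimum, 9 response genes and 2 synthetases were higher, against 37.4% of all tested genes, and 11 response genes and 8 synthetases were lower, against 43.6%. The values of the polymer X libraries did not overlap those of the TCP libraries for 34 of the 37 tested members, but this also held for 90.4% of all tested genes. With libraries as whole units, the smallest two-sided p that an exact permutation test of 2 against 2 allows is 0.333. In bulk RNA, fewer cells expressing a gene and less of its RNA per cell cannot be told apart.

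**Figure D1:**
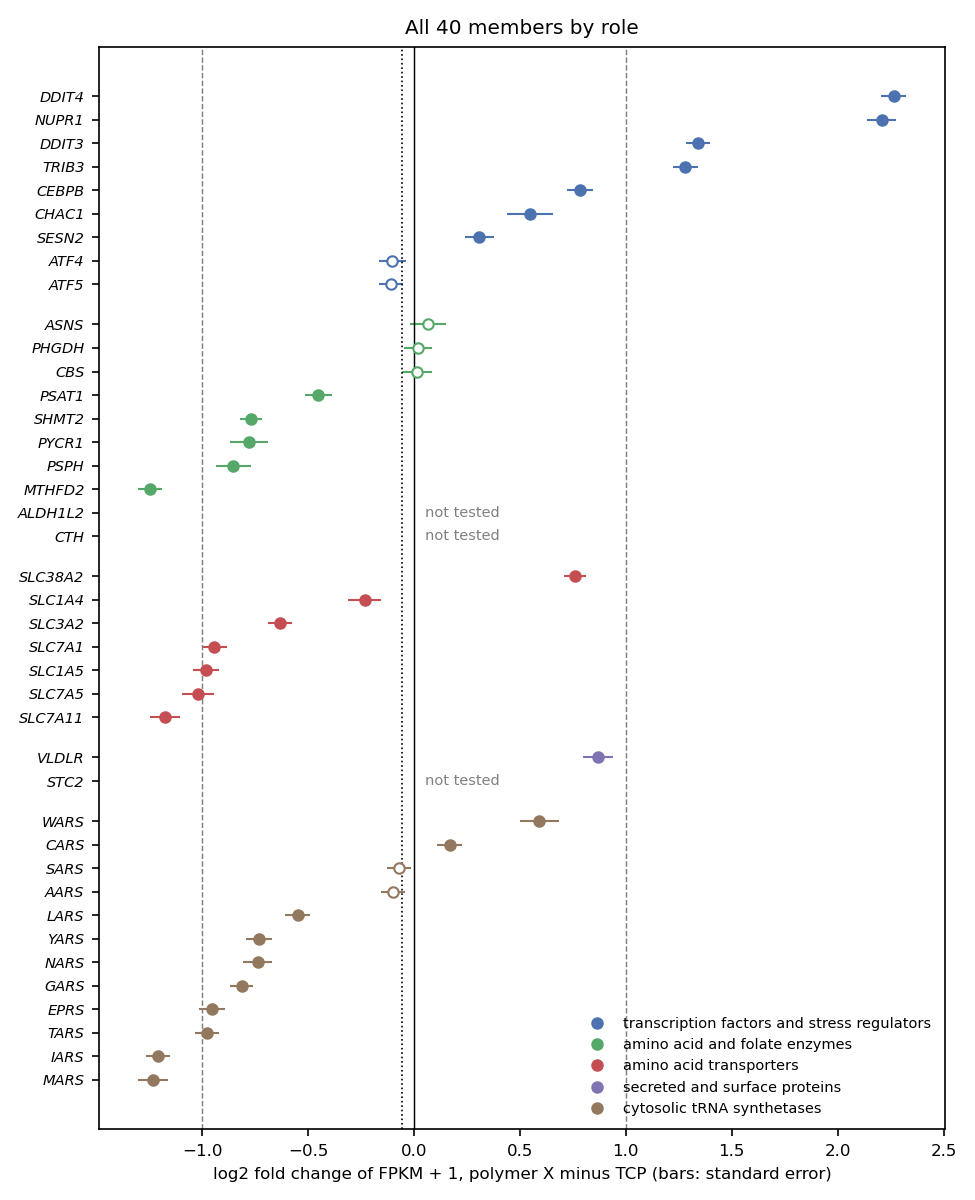
Log2 fold change of FPKM + 1 (polymer X minus TCP, 2 libraries each) for the 37 tested members, grouped by role, with the standard error from limma as bars, and the 3 other members marked as not tested. Filled points have an adjusted p under 0.05, dashed lines mark a 2-fold change, and the dotted line marks the median of all tested genes (-0.06). The filled points to the right of the right dashed line are all regulators, and the points of most enzymes, transporters and synthetases lie on the left.

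The transcription factors came first. ATF4 (NM_182810, chromosome 22, 39916569 to 39918691 on the hg19 build) lay at 169 and 154 FPKM in the TCP libraries and at 149 and 151 in the polymer X libraries. Both polymer X values were below both TCP values, but by less than the distance between the TCP libraries where the groups came closest. The log2 fold change was -0.10, with a standard error of 0.06 and an adjusted p of 0.155 from limma, and under quantile normalization, which forces all libraries to 1 distribution, it turned to 0.27 (adjusted p = 0.0018 from limma). Leaving out 1 library also moved it, to -0.04 without TCP replicate 1 and to -0.17 without TCP replicate 2. ATF5, a related factor whose translation is also raised by eIF2 alpha phosphorylation, averaged 23.7 ± 0.711 FPKM (SD, n = 2) on TCP and 21.9 ± 0.403 (SD, n = 2) on polymer X, and it did not pass the test either (log2 fold change -0.11, or 0.11 under quantile normalization). CEBPB encodes C/EBP beta, with which ATF4 can pair on DNA, and it rose from 40.6 ± 2.35 FPKM (SD, n = 2) to 70.6 ± 2.35 (SD, n = 2), which at 0.78 on the log2 scale passed the test without reaching 2-fold. Under quantile normalization CEBPB was called, at 1.09, and with SLC38A2 it brought the response genes called higher from 4 to 6.

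DDIT3 encodes CHOP, a C/EBP family member linked to cell death under lasting stress. It lay at 21.8 and 21.1 FPKM on TCP and at 54.5 and 57.3 on polymer X (NM_001195057, chromosome 12, 57910371 to 57914300). Both polymer X libraries were far above both TCP libraries, and replicates of a group differed by a few FPKM at most. The log2 fold change was 1.34, with a standard error of 0.06 and an adjusted p of 3.8e-08 from limma, and its 6 listed transcripts gave between 1.30 and 1.34. The last 68 bases of DDIT3 overlap the end of MARS on the opposite strand, and since tags were counted without regard to strand, tags from that stretch were given to both genes.

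NUPR1, a small chromatin-associated protein induced by many stresses, lay at 12.2 and 10.6 FPKM on TCP and at 56.5 and 56.1 on polymer X. The polymer X libraries were nearly equal and stood 4.92-fold above the TCP mean (log2 fold change 2.21, standard error 0.07, adjusted p = 7.7e-09 from limma). DDIT4 encodes REDD1, an inhibitor of the growth-promoting kinase complex mTORC1 that is also induced by hypoxia. Its values were 82.2 and 85.1 FPKM on TCP and 415 and 397 on polymer X, the highest polymer X level of any of the 40 members. The groups were widely separated, 4.85-fold apart by their means, and the log2 fold change of 2.26, with a standard error of 0.06 and an adjusted p of 2.9e-09 from limma, was close to that of NUPR1. With a pseudocount of 0.1 the values were 2.28 for DDIT4 and 2.29 for NUPR1.

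TRIB3, a pseudokinase that is a target of ATF4 and DDIT3 and feeds back on them, lay at 7.57 and 7.65 FPKM on TCP and at 20.3 and 19.6 on polymer X. The libraries of each group lay close together and the groups were 2.62-fold apart (log2 fold change 1.28, standard error 0.06, adjusted p = 7.2e-08 from limma). The remaining stress regulators changed less. SESN2, a leucine sensor that restrains mTORC1, went from 3.34 ± 0.037 FPKM (SD, n = 2) to 4.37 ± 0.050 (SD, n = 2), with a log2 fold change of 0.31. Under quantile normalization that fold change was 0.17 and did not pass the test (adjusted p = 0.051 from limma). CHAC1, which degrades glutathione, was low throughout, at 1.20 and 1.68 FPKM on TCP and 2.36 and 2.75 on polymer X. The groups of CHAC1 did not overlap, although the TCP libraries also lay apart from each other, and the log2 fold change of 0.55 (adjusted p = 0.0011 from limma) passed the test. Under quantile normalization it was 0.26 and did not (adjusted p = 0.057 from limma).

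**Figure D2:**
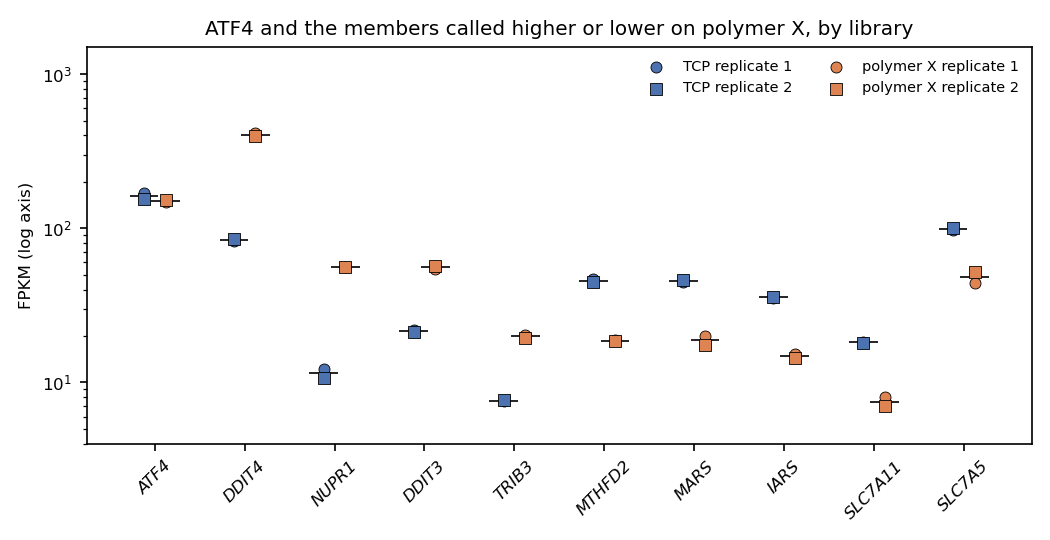
FPKM on a log axis for ATF4 and the 9 members called higher or lower, with 1 point for each of the 4 libraries and short lines at the group means. The points of ATF4 lie between 149 and 169 in all libraries, the polymer X points of DDIT4, NUPR1, DDIT3 and TRIB3 lie above their TCP points, and those of the other 5 genes lie below.

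Most enzymes were lower or did not pass the test. Of the 10 amino acid and folate enzymes, 8 were tested, 5 were lower and 0 higher at an adjusted p under 0.05 from limma (also 0 higher at an unadjusted p under 0.05), and their median log2 fold change was -0.61, against -0.06 for all tested genes, and -0.30 under quantile normalization. Among all tested genes, 43.6% were lower and 37.4% higher at that threshold. MTHFD2, the mitochondrial enzyme that oxidizes methylene-tetrahydrofolate, was the 1 enzyme called. It lay at 47.0 and 44.5 FPKM on TCP and at 18.9 and 18.5 on polymer X. Both polymer X libraries were well under both TCP libraries, 2.45-fold lower by the means (log2 fold change -1.25, standard error 0.06, adjusted p = 6.2e-08 from limma). Under quantile normalization it was -0.99, just short of the minimum.

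The serine pathway split. PHGDH, which commits glycolytic carbon to serine, lay between 6.45 and 6.78 FPKM in all 4 libraries with overlapping groups. PSAT1 and PSPH, which carry out the next steps, fell by 0.45 and 0.85 on the log2 scale, from 48.6 ± 2.68 to 35.2 ± 1.89 FPKM (SD, n = 2) and from 5.38 ± 0.072 to 2.54 ± 0.345 FPKM (SD, n = 2). PSPH passed the 2-fold minimum with a pseudocount of 0.1 (-1.06) and under quantile normalization (-1.01), whereas PSAT1 was at -0.15 under the latter. SHMT2, which turns serine into glycine and a folate-bound carbon unit in mitochondria, fell by 0.77, from 66.8 ± 1.19 to 38.7 ± 0.780 FPKM (SD, n = 2), and was at -0.45 under quantile normalization. PYCR1, the last enzyme of proline synthesis, fell by 0.78, from 7.10 ± 0.719 to 3.72 ± 0.434 FPKM (SD, n = 2).

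ASNS, asparagine synthetase, is among the best known targets of ATF4. Its libraries lay at 5.80 and 5.04 FPKM on TCP and at 6.09 and 5.34 on polymer X. The groups overlapped, and the log2 fold change of 0.07, with a standard error of 0.09 and an adjusted p of 0.503 from limma, turned to -0.02 without TCP replicate 2 or without polymer X replicate 1. CBS, the first enzyme of transsulfuration, also had overlapping groups, between 4.43 and 4.80 FPKM. CTH, the next enzyme of that route, lay between 0.470 and 0.576 FPKM, and ALDH1L2, a mitochondrial folate dehydrogenase, between 0.239 and 0.415. Both were under the minimum for testing, with 40 to 48 tags for CTH and 73 to 140 tags for ALDH1L2.

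Among the 7 transporters, 6 were lower and 1 was higher at an adjusted p under 0.05 from limma, against 43.6% and 37.4% of all tested genes, with a median log2 fold change of -0.94. Under quantile normalization the median was -0.72 and the same split of 6 and 1 was found. SLC7A11, the cystine carrier that supplies glutathione synthesis, lay at 18.3 and 18.1 FPKM on TCP and at 7.99 and 7.01 on polymer X. Each polymer X library was under each TCP library, with a 2.43-fold difference of the means (log2 fold change -1.18, standard error 0.07, adjusted p = 3.8e-07 from limma).

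SLC7A5, which carries leucine and other large neutral amino acids, lay at 96.8 and 101 FPKM on TCP and at 44.5 and 52.3 on polymer X. The groups were apart, but the polymer X libraries differed more from each other than the TCP libraries did. The log2 fold change of -1.02, with a standard error of 0.08 and an adjusted p of 1.6e-06 from limma, was barely past the minimum, and it was -0.99 without TCP replicate 2, -0.90 without polymer X replicate 1, -0.98 after scaling to a common median and -0.72 under quantile normalization. SLC3A2, the heavy chain that brings SLC7A5 and SLC7A11 to the cell surface, fell by 0.63, from 159 ± 0.499 to 102 ± 2.89 FPKM (SD, n = 2), and was at -0.29 under quantile normalization.

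SLC7A1, a carrier of arginine and lysine, and SLC1A5, a carrier of glutamine, fell by 0.94 and 0.98 and so just missed the minimum. With a pseudocount of 0.1, SLC1A5 passed it at -1.03. SLC1A4, a carrier of alanine, serine and cysteine, fell by 0.23, or by 0.39 under quantile normalization. The exception was SLC38A2, a sodium-coupled carrier of small neutral amino acids that is raised when amino acids are scarce. It lay at 37.0 and 37.1 FPKM on TCP and at 63.9 and 63.1 on polymer X. Both polymer X libraries were above both TCP libraries, with a log2 fold change of 0.76 (adjusted p = 9.2e-07 from limma) that reached 1.07 under quantile normalization.

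Of the members that encode secreted and surface proteins, VLDLR, a receptor for apolipoprotein E-rich lipoproteins that is also induced by hypoxia, rose from 3.42 ± 0.071 to 7.07 ± 0.264 FPKM (SD, n = 2). Its log2 fold change was 0.87, and 1.03 with a pseudocount of 0.1. STC2, a secreted glycoprotein, was not tested, with 11 and 10 tags on TCP and 14 and 34 tags on polymer X, an FPKM of at most 0.157.

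The tRNA synthetases attach amino acids to their tRNAs, and the cytosolic enzymes are shared by ATF4 control and by the demand of protein synthesis. The 12 members together summed to 476 and 487 FPKM on TCP and to 335 and 319 on polymer X. Both polymer X sums were below both TCP sums. Their median log2 fold change was -0.74, against -0.06 for all tested genes, and it was -0.44 under quantile normalization and -0.69 after scaling to a common median. Among all genes averaging 5 FPKM or more, a level that each of the 12 members reached, the median was -0.20.

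IARS, which charges isoleucine tRNA, lay at 35.5 and 35.9 FPKM on TCP and at 15.3 and 14.5 on polymer X (NM_002161, chromosome 9, 94972490 to 95056038). MARS, which charges methionine tRNA including the initiator, lay at 44.7 and 46.0 FPKM on TCP and at 20.1 and 17.5 on polymer X (NM_004990, chromosome 12, 57881736 to 57910438). In both genes the polymer X libraries were under the TCP libraries by more than the distance between replicates. The means were 2.4-fold lower for IARS (log2 fold change -1.21, standard error 0.06, adjusted p = 7.9e-08 from limma). They were 2.42-fold lower for MARS (log2 fold change -1.23, standard error 0.07, adjusted p = 2.7e-07 from limma). Under quantile normalization both calls were lost, at -0.99 and -0.98. MARS is the partner that overlaps the end of DDIT3, which moved in the opposite direction.

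TARS, EPRS, GARS, NARS, YARS and LARS, which charge the tRNAs of threonine, glutamate and proline, glycine, asparagine, tyrosine and leucine, fell by less than the minimum. TARS and EPRS were closest to it, with log2 fold changes of -0.98 and -0.95, followed by GARS (-0.81), NARS (-0.74), YARS (-0.73) and LARS (-0.55). Under quantile normalization NARS and YARS were at -0.41 and -0.47. TARS went from 66.2 ± 1.40 to 33.1 ± 1.19 FPKM (SD, n = 2), and EPRS from 29.1 ± 1.00 to 14.6 ± 0.793 FPKM (SD, n = 2). Without polymer X replicate 1 both passed the minimum, at -1.01 each, and the count of synthetases called lower was 4 instead of 2.

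The other 4 synthetases were not lower at an adjusted p under 0.05 from limma. SARS, the most abundant of the 4, lay at 70.3 and 69.6 FPKM on TCP and at 64.8 and 68.3 on polymer X, and AARS lay at 38.5 and 41.0 on TCP and at 37.0 and 37.1 on polymer X. These enzymes, for serine and alanine, did not pass the test, with log2 fold changes of -0.07 and -0.10 that turned to 0.26 and 0.20 under quantile normalization (adjusted p of 0.0018 and 0.010 from limma). CARS, for cysteine, had a log2 fold change of 0.17 (adjusted p = 0.024 from limma), or 0.32 under quantile normalization. WARS, the tryptophan enzyme that is also induced by interferon, lay at 19.9 and 19.4 FPKM on TCP and at 33.6 and 27.0 on polymer X. Both polymer X libraries of WARS were above both TCP libraries but well apart from each other, and the log2 fold change was 0.59, with a standard error of 0.09 and an adjusted p of 2.2e-04 from limma.

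**Figure D3:**
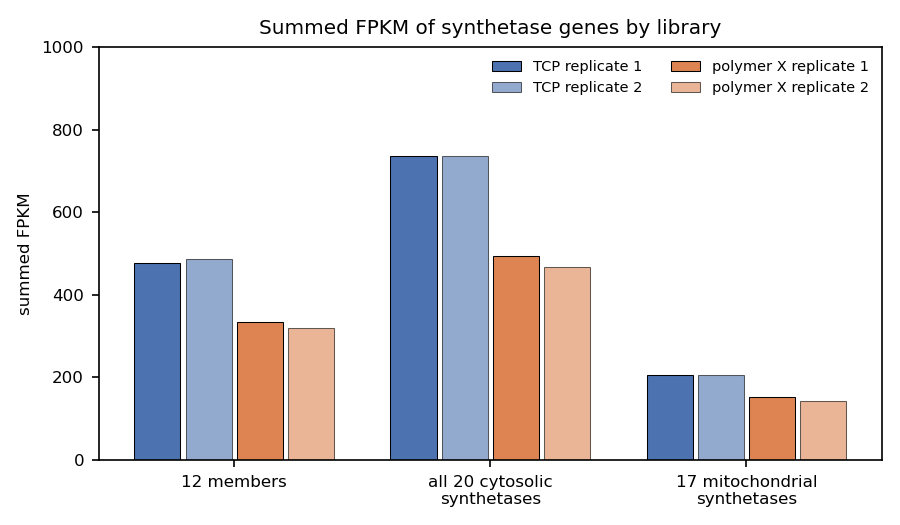
Summed FPKM of the 12 member synthetases, of all 20 cytosolic synthetases and of 17 mitochondrial synthetases, with 1 bar for each of the 4 libraries. VARS, listed at 0, is part of the 20, and VARS2, with at most 0.015 FPKM, is part of the 17. The polymer X bars are lower than the TCP bars in each set, 335 and 319 against 476 and 487 for the members. Sums over all 11964 tested genes, not drawn, were lower too (277080 and 270703 against 313215 and 302769).

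The cytosolic synthetases and scaffold proteins outside the members were lower as well. Of 11 listed, 10 were tested, 9 were lower and 0 higher at an adjusted p under 0.05 from limma (also 0 higher at an unadjusted p under 0.05), and 4 were called lower, with a median log2 fold change of -0.68. All tested genes were lower in 43.6%, higher in 37.4% and called lower in 9.45% of cases. Under quantile normalization 8 of the 10 were lower and 1 was higher. FARSB, a subunit of the phenylalanine enzyme, fell from 23.4 ± 0.785 to 6.94 ± 1.10 FPKM (SD, n = 2), and KARS, for lysine, fell from 83.8 ± 1.67 to 35.7 ± 3.09 FPKM (SD, n = 2). The scaffold proteins AIMP2 and EEF1E1, which hold part of these enzymes in a complex with IARS, MARS and EPRS, fell by 1.45 and 1.34 on the log2 scale. KARS lost its call under quantile normalization (-0.89). VARS, for valine, was listed at 0 in all 4 libraries. Whether its tags were lost when they were placed was not tested, so this value does not show that the gene was silent. The row used for VARS2, its mitochondrial counterpart, lay on an alternate haplotype of chromosome 6, with at most 0.015 FPKM. Of 16 tested mitochondrial synthetases, 12 were lower and 0 higher (also 0 at an unadjusted p under 0.05 from limma), against the same 43.6% and 37.4%, with a median of -0.40.

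Promoter sequence was examined because ATF4 and C/EBP proteins bind a composite element in genes of this response. The letters TGATGNAA, a core of that element, were searched on both strands in RefSeq promoter windows (GRCh38.p14) that run from 250 bases before to 50 bases after each start site. Transcript accessions linked 40 of 40 members to RefSeq genes, and 32 members had a window. No window was listed for NUPR1, PSPH, SHMT2, ALDH1L2, PYCR1, SLC7A11, LARS and YARS. A match was found in 3.62% of all 35116 windows and in 4.46% of all 27305 genes with a window. Among the members it was found in 13 of 32, that is, in 6 of 22 response genes and 7 of 10 synthetases.

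Of the 9 called members, IARS and MARS had a match, and they are shown first. The other promoters were chosen after their values were seen, to set beside them all further synthetases with a match together with ASNS, CHAC1 and SLC1A5. Each stretch is 30 bases on the strand of its gene, with the matching letters in capitals, read as TGATGNAA or as its reverse complement.
IARS: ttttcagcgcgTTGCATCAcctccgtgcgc
MARS: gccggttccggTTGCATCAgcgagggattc
TARS: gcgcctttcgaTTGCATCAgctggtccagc
NARS: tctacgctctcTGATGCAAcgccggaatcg
GARS: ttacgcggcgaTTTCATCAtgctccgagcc
CARS: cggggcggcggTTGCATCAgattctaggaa
AARS: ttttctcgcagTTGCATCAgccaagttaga
ASNS: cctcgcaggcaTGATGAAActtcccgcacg
CHAC1: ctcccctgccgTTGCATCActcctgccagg
SLC1A5: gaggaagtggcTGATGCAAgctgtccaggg

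These stretches lie at chr9:92293692-92293721 (minus strand) for IARS, chr12:57488053-57488082 (plus) for MARS, chr5:33440956-33440985 (plus) for TARS, chr18:57621804-57621833 (minus) for NARS and chr7:30594834-30594863 (plus) for GARS. Those of CARS, AARS, ASNS, CHAC1 and SLC1A5 lie at chr11:3057407-3057436 (minus), chr16:70289675-70289704 (minus), chr7:97872458-97872487 (minus), chr15:40953251-40953280 (plus) and chr19:46784893-46784922 (minus). In 5 synthetases (IARS, MARS, TARS, NARS and CARS) the centre of the match lay within 25 bases of the start site, as it did in 0.725% of all genes with a window, and in GARS and AARS the match began 33 and 187 bases upstream. The longer upstream stretch of IARS, chr9:92293698-92293797 on the minus strand, is given because it is the 1 called member whose match lies wholly before the start site.
IARS upstream: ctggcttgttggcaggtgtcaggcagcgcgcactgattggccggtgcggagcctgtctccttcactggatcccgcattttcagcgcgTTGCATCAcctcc

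The match did not sort the synthetases by direction. The 7 with a match ranged from MARS at a log2 fold change of -1.23 to CARS at 0.17, and the 3 with a window but no match were EPRS (-0.95), SARS (-0.07) and WARS (0.59). Among the response genes, the match was present in SLC1A5, SLC7A1, SLC3A2 and SLC1A4, which were lower, in CHAC1, which was higher but not under quantile normalization, and in ASNS, which did not pass the test. DDIT4, DDIT3 and TRIB3, called higher, and MTHFD2 and SLC7A5, called lower, had a window without these letters. A match describes the sequence and does not show that a factor was bound in these cells.

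**Figure D4:**
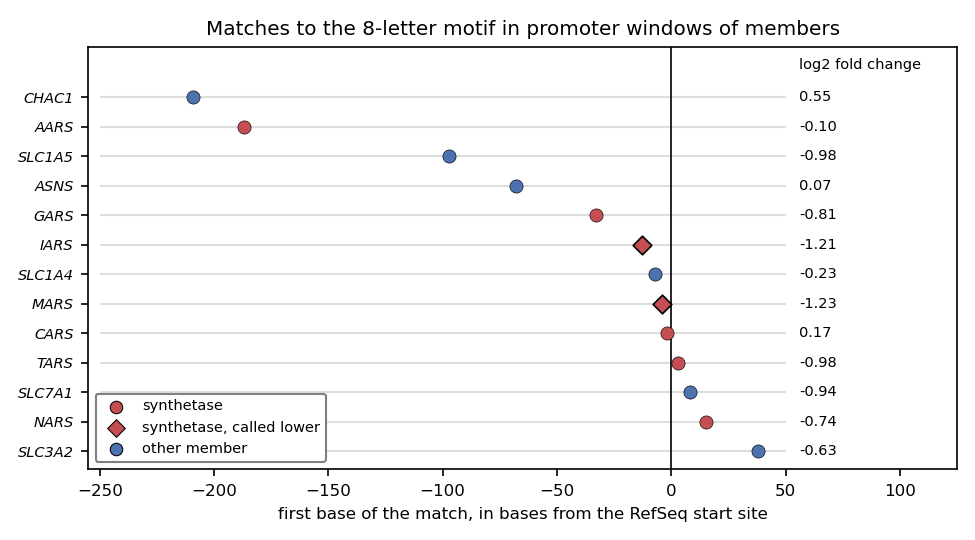
Position of the first base of the match to the 8-letter motif, in bases from the RefSeq start site, for the 13 members with a match, where grey lines mark the searched window. Red points are synthetases (diamonds were called lower), blue points are other members, and the numbers at the right are log2 fold changes (polymer X minus TCP), which run from -1.23 to 0.55.

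Genes of the upstream machinery of the response were examined next. Of 18 tested genes for eIF2 alpha kinases, phosphatases and subunits of eIF2 and eIF2B, 16 were lower and 1 was higher at an adjusted p under 0.05 from limma, against 43.6% and 37.4% of all tested genes, with a median log2 fold change of -0.71 (-0.47 under quantile normalization). EIF2S1, which encodes eIF2 alpha itself, fell from 34.4 ± 0.303 to 13.3 ± 1.04 FPKM (SD, n = 2) and was the largest change in the list, at -1.31. GCN1, the activator of the amino acid sensing kinase, and EIF2S2, the beta subunit of eIF2, were also called lower (-1.14 and -1.04), and under quantile normalization they were not (-0.96 and -0.77). EIF2S2 was also just short after scaling to a common median (-0.99). That kinase, EIF2AK4 or GCN2, lay at 27.6 and 29 FPKM on TCP and at 19.2 and 18 on polymer X. The 1 gene that was higher was EIF2AK3, the kinase PERK of the endoplasmic reticulum, at 3.55 and 4.21 FPKM on TCP and 5.82 and 5.85 on polymer X.

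Further genes linked to ATF4 and other leucine zipper factors went both ways, with 4 called higher and 3 called lower among 18 tested, against 10.7% and 9.45% of all tested genes, and a median of 0.28. GDF15, a secreted stress hormone, was at 0.280 and 0.638 FPKM on TCP and at 38.0 and 35.5 on polymer X, so that it rose by 4.70 on the log2 scale (adjusted p = 1.7e-09 from limma). VEGFA, an angiogenic factor that is also induced by hypoxia, went from 65.9 ± 0.664 to 933 ± 81.5 FPKM (SD, n = 2). TXNIP, a regulator of glucose uptake, went from 47.0 ± 0.033 to 374 ± 23.3 FPKM (SD, n = 2), and RRAGD, a GTPase of the amino acid branch of mTORC1, rose by 1.05 on the log2 scale. In the other direction, GADD45A, a growth arrest gene, fell from 246 ± 6.42 to 21.1 ± 0.550 FPKM (SD, n = 2). ATF3, an early target of ATF4, fell from 14.4 ± 0.892 to 5.32 ± 0.375 FPKM (SD, n = 2). JUN, which pairs with ATF factors, fell by 1.09, or by 0.77 under quantile normalization.

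Of 22 tested folate, serine, glutamine and proline enzymes outside the members, 8 were called lower and 2 higher, against 9.45% and 10.7% of all tested genes, with a median of -0.52. GCLM, the modifier subunit of the enzyme that starts glutathione synthesis, fell from 14.7 ± 0.365 to 3.04 ± 0.069 FPKM (SD, n = 2). MTHFD1 (-1.75), ALDH4A1 (-1.40) and AHCY (-1.32) were also called lower on the log2 scale, where AHCY was at -0.99 under quantile normalization. AMT, a subunit of the glycine cleavage system, was called higher at 1.5. Among 13 tested amino acid transporters outside the members, 2 were called higher and 0 lower, against 10.7% and 9.45% of all tested genes. Without the fold minimum 5 (38.5%) were higher and 3 (23.1%) lower at an adjusted p under 0.05 from limma, against 37.4% and 43.6% of all tested genes, with a median of -0.02 that was 0.14 under quantile normalization. The 2 were SLC6A6, the taurine carrier (1.93), and SLC43A1, a carrier of large neutral amino acids (1.12, or 0.63 under quantile normalization).

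Genes of the endoplasmic reticulum stress response were set beside the members because PERK is an input to ATF4. Of 21 tested chaperones and folding factors, 9 (42.9%) were higher and 7 (33.3%) lower at an adjusted p under 0.05 from limma, against 37.4% and 43.6% of all tested genes, with a median log2 fold change of 0.04 (0.27 under quantile normalization, with 13 higher and 5 lower). DNAJB9, a cochaperone of HSPA5, was the 1 called, from 2.08 ± 0.056 to 6.75 ± 0.878 FPKM (SD, n = 2).

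**Figure D5:**
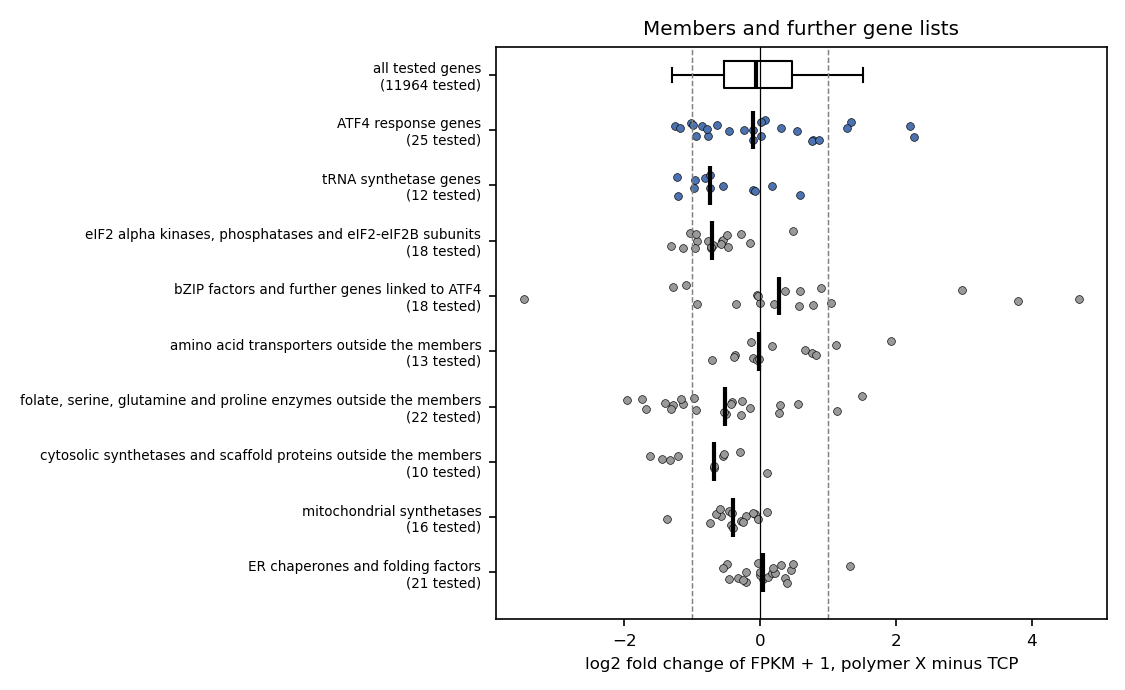
Log2 fold change of FPKM + 1 (polymer X minus TCP) for the tested response genes, the synthetases and 7 further lists, with 1 point for each gene and a black line at the median. The box at the top spans the quartiles of all 11964 tested genes with whiskers at percentiles 5 and 95, dashed lines mark 2-fold, and the medians of the synthetases (-0.74) and of the eIF2 list (-0.71) lie left of that of all genes (-0.06).

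Some markers listed for other cell types moved with the groups. The study itself reported extracellular matrix terms among genes raised in SKOV3 spheroids on polymer X, and the fibroblast list holds collagen genes. Whether other cells were present was not tested. Of 7 fibroblast markers, 5 were tested and 4 of these (COL1A2, COL3A1, DCN and ACTA2) were called higher on polymer X, where 10.7% of all tested genes were, and the list summed to 17.4 and 18 FPKM on TCP and to 64.8 and 59.9 on polymer X. COL1A2 was its most abundant gene in each library, at 8.41, 8.75, 45.8 and 42.2 FPKM for TCP replicates 1 and 2 and polymer X replicates 1 and 2, while COL1A1 fell from 8.34 ± 0.187 to 3.79 ± 0.025 FPKM (SD, n = 2). PDGFRA and PDGFRB were at most 0.291 and 0.115 FPKM. Under quantile normalization ACTA2 (0.79) was no longer called, and COL1A1 went from -0.96 to -1.03 and was called lower.

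The 8 leukocyte markers summed to 17.3 and 17.5 FPKM on TCP and to 43.4 and 46.1 on polymer X, nearly all of it CD68, which was the 1 tested and was called higher. PTPRC was at 0.005 and 0 FPKM on TCP and at 0.468 and 0.530 on polymer X, and CD3E was listed at 0 in all 4 libraries. None of the 5 endothelial markers reached the minimum for testing, and they summed to 0.592 and 0.614 FPKM on TCP and to 0.964 and 0.599 on polymer X. KDR was the most abundant of them on TCP and PECAM1 on polymer X, where it lay at 0.573 and 0.458 FPKM after 0 in both TCP libraries. Among the 8 tested SKOV3 and epithelial markers, ERBB2, PAX8 and EPCAM were called higher, although EPCAM (0.47 under quantile normalization) was at most 1.39 FPKM. In that list KRT8 (-0.87), KRT7 (-0.76) and KRT18 (-0.44) fell by less than 2-fold, and KRT18 did not pass under quantile normalization (-0.098). The part of these markers in the results above was not tested.

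Several values carry a limit from shared sequence. RefSeq names pseudogenes for 11 of the 40 members (ATF4, ASNS, PSAT1, PSPH, MTHFD2, SLC7A5, AARS, CARS, GARS, NARS and WARS), and tags that could be placed on such copies make these values uncertain. MARS, which shares its end with DDIT3, also overlaps the span of ARHGAP9 by 862 bases, where ARHGAP9 averaged 0.022 FPKM on TCP and 0.081 on polymer X. Besides these, the spans of ATF5, SHMT2 and YARS overlap genes on the opposite strand. NDUFA4L2 overlaps SHMT2 by 33 bases, and S100PBP overlaps YARS by 591 bases. ATF5 is overlapped by NUP62 (589 bases) and IL4I1 (397 bases). NUP62 averaged 31.3 FPKM on TCP and 20.25 on polymer X, and IL4I1 averaged 4.71 and 16.2. How far their tags entered the ATF5 values was not tested.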

How the data were processed

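RNA-seq was analysed in 4 SKOV3 libraries, 2 on TCP and 2 on polymer X. The authors deposited FPKM values for 50078 RefSeq transcripts of hg19, which per the file headers were made with HOMER from tags on exons without regard to strand. The submitters' processing notes also name STAR 2.4.0 and DESeq. Each of 19475 symbols was represented by its transcript of highest mean FPKM, and symbols that reached 1 FPKM in 2 or more libraries entered the test. limma 3.58.1 (R 4.3.3) was fitted to log2(FPKM + 1) with a trend of variance on mean, without a replicate block, and with Benjamini-Hochberg adjustment over all 11964 tested genes. The procedure was tested on simulated data. Low values were whole numbers of tags, within 0.1 of a tag, in 100.0% of cases, which gives counting depth. Replicates differed by more than counting noise (mean chi-square per gene 5.43 on TCP and 6.16 on polymer X).

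All members were named by role, with library values for those called and for ATF4 and DDIT3. Of each further list the called genes were named, at most 5 in each direction, and some genes of the lists are not reported here. Library values of any other gene were chosen after its values were seen. Members and lists were chosen with earlier results of these data known. Alternatives were a pseudocount of 0.1, other filters, quantile normalization, scaling to a common median, a replicate block, summed transcripts, no variance trend, each library left out, and other fold minimums. Plots were drawn with matplotlib 3.10.9.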

Additional observations from a re-analysis of the deposited data

How the results depend on the processing

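The counts of genes called over the whole table, 1285 higher and 1131 lower, moved by more than 1.5 times under 3 settings. They were 4477 and 5212 without a fold change minimum, 281 and 150 with the minimum raised to 2 on the log2 scale, and 702 genes were higher when only genes averaging 5 FPKM or more entered the test. Without the minimum, 9 ATF4 response genes were higher and 11 lower, and 2 tRNA synthetases were higher and 8 lower. With the minimum raised to 2, 2 response genes were higher and 0 lower, and 0 synthetases were lower. With a pseudocount of 0.1, 5 response genes were lower, against 3. Under quantile normalization 0 synthetases were called lower, and 8 passed without the minimum. With each library left out in turn, where the lone sample of a group is assumed to vary like the other group, the genes called ranged from 1289 to 1325 higher and from 1053 to 1234 lower, the response genes called lower from 2 to 4, and the synthetases called lower from 2 to 4.

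For the response genes, the median log2 fold change (-0.10, replicate SD 0.03) changed sign under quantile normalization, to 0.012. It moved to -0.067 with no filter and to -0.061 after scaling to a common median, and ranged from -0.14 to -0.040 with each library left out. The median of the synthetases (-0.74, replicate SD 0.05) was -0.44 under quantile normalization and ranged from -0.79 to -0.68 with each library left out. Among single members, none of which was called, the sign turned under quantile normalization for ATF4 (0.27), ATF5 (0.11), CBS (-0.083), AARS (0.20) and SARS (0.26). It also turned with a library left out, for ASNS without TCP replicate 2 (-0.021) or polymer X replicate 1 (-0.016), for PHGDH without polymer X replicate 1 and for CBS without polymer X replicate 2, with ranges of -0.021 to 0.15, -0.015 to 0.048 and -0.032 to 0.062. The cause was not tested.

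With the replicate block, 1285 genes were higher and 1131 lower, and no member gained or lost a call. Libraries with the same number deviated together with a correlation of 0.093 over 11964 genes, and no pairing was assumed. Depth limits STC2, at 10 to 34 tags, most among the members.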
